A study of Mus musculus with 12 samples.

Results

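The Fc receptor genes of mouse microglia were examined in cells sorted by the activity of the *Arg1* locus. The group was chosen by name and holds 6 of the 55487 genes in the count table. *Fcgr1*, *Fcgr3* and *Fcgr4* encode the activating IgG receptors FcγRI, FcγRIII and FcγRIV, *Fcgr2b* encodes the inhibitory receptor FcγRIIB, *Fcer1g* encodes the signalling γ-chain that the activating receptors share, and *Fcrls* encodes Fc receptor-like S, a secreted protein with Fc receptor-like and scavenger receptor domains. All 6 passed the filter on low counts.

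The 12 RNA-seq libraries came from YARG mice at postnatal day 13, in which yellow fluorescent protein (YFP) is placed behind the stop codon of the endogenous *Arg1* gene and marks cells that transcribe it. CX3CR1+ cells negative for the macrophage marker CD206 were sorted from basal forebrain and striatum into YFP+ (ARG1+) and YFP- (ARG1-) microglia, and each library held pooled tissue of several animals of 1 sex. There were 3 libraries from each sex of each population, with 28356659 to 46569667 counts for ARG1+ and 30954399 to 60625170 for ARG1- microglia. *Arg1* mRNA itself was at 0 counts in all 6 ARG1- libraries and in 4 of the 6 ARG1+ libraries, with 52 counts in ARG1+ female replicate 15 and 2 in ARG1+ female replicate 8. The sort itself was by the reporter protein. The paper states that its RNA-seq showed no *Arg1* transcripts in ARG1+ microglia. By quantitative PCR on RNA of such sorted cells, it found *Arg1* expression restricted to the YFP+ population. Its staining of YARG mice showed ARG1 and YFP protein in the same cells. Of 8 microglial marker genes all were measured, and their summed level was 45034 to 56372 CPM (counts per 1000000 of the scaled library total) in ARG1- and 32285 to 39735 in ARG1+ libraries.

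Fc receptors bind the constant part of antibodies. An activating receptor that is cross-linked by antibody-coated material has the tyrosine motifs of its γ-chain phosphorylated by kinases of the Src family such as Lyn, after which Syk is recruited and drives engulfment and the oxidative burst. FcγRIIB carries an inhibitory tyrosine motif instead and recruits phosphatases that oppose this signal. In the brain these receptors are carried mainly by microglia and border macrophages, whereas *Fcrls* is a transcript by which microglia are commonly recognised.

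Because *Fcgr2b* and *Fcgr3* arose by duplication and lie near each other on chromosome 1, the extent to which their reads can be told apart was examined first. Over 509 aligned coding bases the pair was identical at 491 (96.5%), whereas the other pairs among the 4 IgG receptor genes were identical at 57.0 to 64.3% of aligned bases. The longest stretch that both transcripts carry without a difference is 129 bases long and is shown because a read of 75 bases lying inside it cannot be assigned to either gene. It crosses an exon junction, and capitals mark the 27 bases of the downstream exon. In GRCm38 its exon parts lie on the minus strand at chr1:170967980-170968081 and chr1:170966674-170966700 in *Fcgr2b*, and at chr1:171057691-171057792 and chr1:171054167-171054193 in *Fcgr3*.
Fcgr2b and Fcgr3 shared stretch: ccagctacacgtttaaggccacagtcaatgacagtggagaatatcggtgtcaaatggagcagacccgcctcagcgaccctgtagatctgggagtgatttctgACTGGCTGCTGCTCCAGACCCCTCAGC
Of the 1273 stretches of 75 bases in the principal *Fcgr3* transcript, 94 (7.38%) also occurred in *Fcgr2b* and none in any other gene. In *Fcgr2b*, 321 of 3470 (9.25%) occurred in another gene, and 94 of these (2.71%) were those of *Fcgr3*. None of the stretches of *Fcgr1*, *Fcgr4*, *Fcer1g* or *Fcrls* was shared. The exons of *Fcgr2b* also overlapped those of the antisense gene Gm38204 by 155 bases. Whether the counting used strand, and how it treated reads with several matches, is not given in the sources used here, so the *Fcgr2b* and *Fcgr3* values carry this limit.

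The genes lie at 2 places. *Fcgr2b* (chr1:170958617-170976547), *Fcgr4* (chr1:171018920-171029761), *Fcgr3* (chr1:171051174-171064935) and *Fcer1g* (chr1:171229572-171234365) fall within 275.7 kb of chromosome 1. *Fcrls* (chr3:87250758-87263738) and *Fcgr1* (chr3:96282909-96293969) are on chromosome 3. All except *Fcgr4* are on the minus strand.

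Levels per length were compared between the genes as CPM per kilobase of the principal transcript. In ARG1- microglia *Fcrls* stood at 2870 ± 455 CPM per kilobase (SD, n = 6 libraries), followed by *Fcgr3* at 1559 ± 162, *Fcer1g* at 1253 ± 47.8, *Fcgr1* at 152 ± 15.9, *Fcgr2b* at 95.03 ± 12.5 and *Fcgr4* at 24.5 ± 7.33. No neighbours in this order overlapped between libraries. In ARG1+ microglia the order was the same, with 2162 ± 237 for *Fcrls*, 1056 ± 113 for *Fcgr3*, 745 ± 165 for *Fcer1g*, 96.0 ± 9.04 for *Fcgr1*, 75.1 ± 18.9 for *Fcgr2b* and 19.4 ± 8.51 for *Fcgr4*. Here *Fcgr1* (85.2 to 109) and *Fcgr2b* (63.2 to 113) overlapped and were not separated beyond their spread. The activating receptor *Fcgr3* and the γ-chain it needs were thus the most abundant transcripts after *Fcrls*, and the single inhibitory receptor was among the least abundant, in both populations.

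The comparison of ARG1+ with ARG1- microglia asked whether the Fc receptor system differs between the populations. *Fcgr1*, *Fcgr3*, *Fcer1g* and *Fcrls* were lower in ARG1+ microglia and none was higher. Their mean levels were 24.5 to 40.6% below those of ARG1- microglia in the fit. *Fcgr2b* and *Fcgr4* had fitted levels 21.3% and 22.9% lower and did not pass the threshold. Of all 16908 genes tested, 9.42% were lower and 6.44% were higher at an adjusted p under 0.05 (quasi-likelihood test of edgeR, Benjamini-Hochberg adjusted), against 4 of 6 and 0 of 6 here. A log2 ratio below gives ARG1+ over ARG1- microglia unless stated. The median log2 ratio was -0.48 for the 6 genes and 0.06 for all genes tested, and DESeq2's Wald test also called 4 lower and 0 higher. For *Fcgr1*, *Fcgr3* and *Fcer1g* all 6 ARG1+ libraries lay below all 6 ARG1- libraries, which was the case for 6.56% of all genes tested. In sorted pools such as these, fewer cells that carry a transcript and less transcript per cell cannot be told apart.

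**Figure D1:**
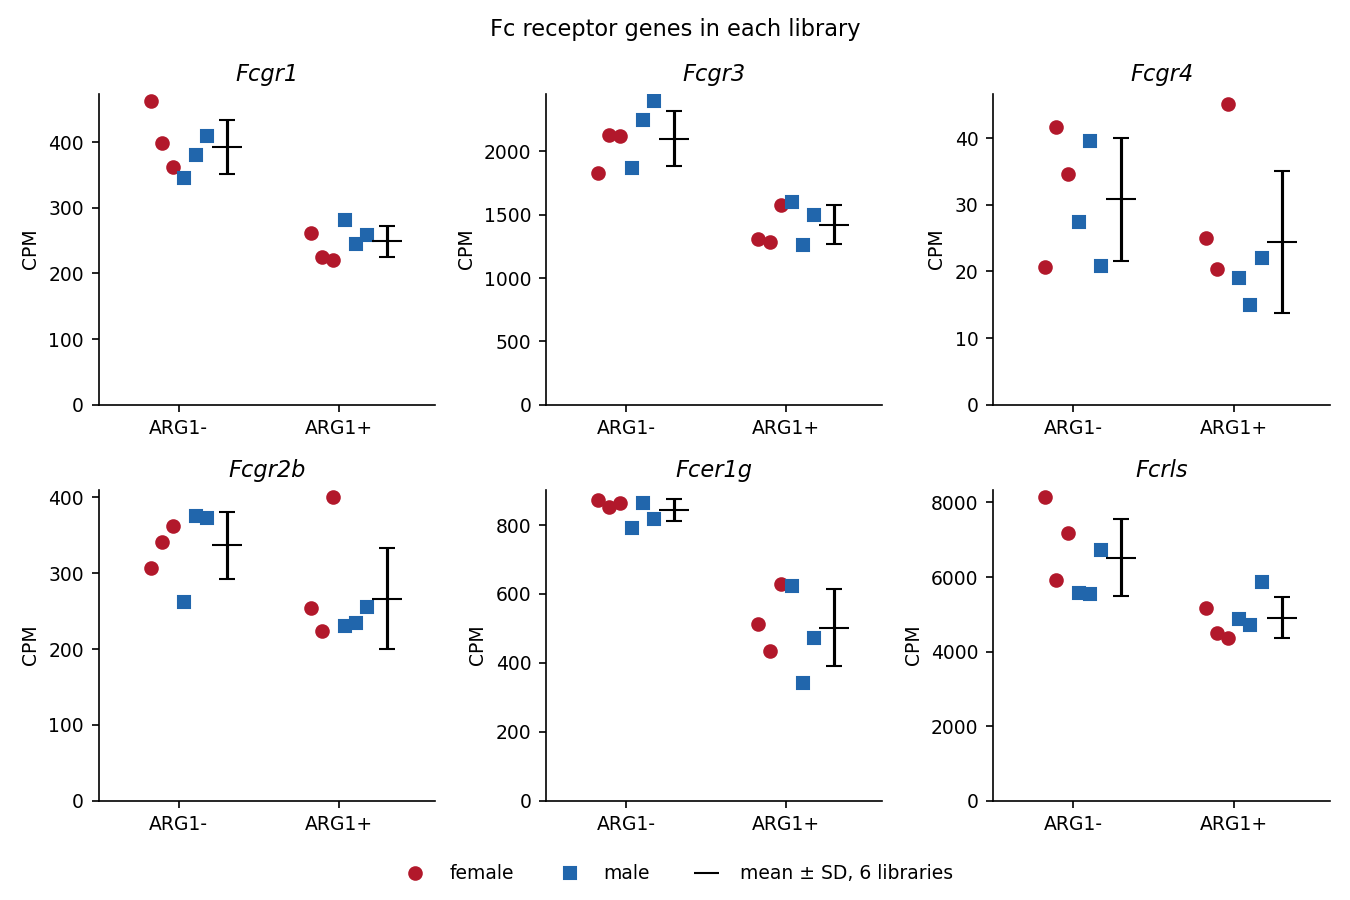
Level of each Fc receptor gene in CPM (y axis, from 0) in the 6 ARG1- and 6 ARG1+ libraries, with circles for females, squares for males and the mean ± SD beside them. The populations are apart for *Fcgr1*, *Fcgr3* and *Fcer1g*, and for *Fcgr2b* and *Fcgr4* the ARG1+ library at the top is female replicate 15.

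*Fcgr1* encodes the high-affinity IgG receptor. It had 462, 399 and 361 CPM in ARG1- females and 346, 380 and 409 CPM in ARG1- males. It had 262, 225 and 220 CPM in ARG1+ females and 282, 244 and 258 CPM in ARG1+ males. The populations did not overlap, and the lowest ARG1- library was 346 CPM against 282 CPM for the highest ARG1+ library. The log2 ratio was -0.66 (SE 0.09, 95% interval -0.87 to -0.45, adjusted p = 0.00109 by edgeR's quasi-likelihood test).

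*Fcgr3* encodes the low-affinity activating receptor FcγRIII, which cannot reach the cell surface or signal without the γ-chain. It was the most abundant of the 4 IgG receptors, with 1831, 2131 and 2117 CPM in ARG1- females and 1872, 2245 and 2400 CPM in ARG1- males. The ARG1+ libraries held 1311, 1287 and 1573 CPM in females and 1602, 1264 and 1497 CPM in males. Every ARG1+ library was below every ARG1- library, and the log2 ratio was -0.56 (SE 0.09, 95% interval -0.76 to -0.37, adjusted p = 0.00181 by edgeR's quasi-likelihood test). When the counts of *Fcgr3* and *Fcgr2b*, which share the stretch printed above, were added together, the log2 ratio of the sum was -0.53 (adjusted p = 0.00342 by edgeR).

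*Fcgr4* encodes FcγRIV, an activating receptor with intermediate affinity for some IgG subclasses. It was the rarest of the group, at 20.6 to 41.7 CPM with a median of 31.0 in ARG1- microglia and at 14.9 to 45.1 CPM with a median of 21.2 in ARG1+ microglia. The populations overlapped over most of their range, and the log2 ratio was -0.37 (SE 0.26, adjusted p = 0.376 by edgeR), with a 95% interval from -0.94 to 0.19. The highest ARG1+ value belonged to female replicate 15, and the other 5 ARG1+ libraries held 14.9 to 25.0 CPM. Without that library the log2 ratio was -0.57 and still did not pass (adjusted p = 0.127 by edgeR). At this spread a decrease of the size seen for *Fcgr1* or *Fcgr3* lies within the interval.

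*Fcgr2b* encodes the inhibitory receptor FcγRIIB. The ARG1- libraries held 307, 341 and 362 CPM in females and 262, 375 and 373 CPM in males. The ARG1+ libraries held 254, 224 and 400 CPM in females and 231, 234 and 255 CPM in males. ARG1+ female replicate 15 was thus above every ARG1- library, and the other 5 ARG1+ libraries, at 239 ± 14.1 CPM (SD, n = 5), were below every ARG1- library. With all 12 libraries the log2 ratio was -0.35 (SE 0.15, 95% interval -0.67 to -0.02, adjusted p = 0.141 by edgeR's quasi-likelihood test). The call rested on that library, since without it the log2 ratio was -0.48 and the adjusted p 0.0164 by edgeR. The same library held the 52 *Arg1* counts noted above.

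*Fcer1g* encodes the common γ-chain. It had 874, 854 and 865 CPM in ARG1- females and 792, 864 and 817 CPM in ARG1- males, a spread of 32.2 CPM (SD) around 844 CPM. The ARG1+ libraries were lower and varied more, with 514, 433 and 629 CPM in females and 622, 342 and 472 CPM in males. ARG1+ male replicate 12 was the lowest. The log2 ratio of -0.75 (SE 0.13, 95% interval -1.04 to -0.47, adjusted p = 0.0031 by edgeR's quasi-likelihood test) was the most negative of the 6 genes, and its interval overlapped those of the other 5.

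*Fcrls*, the most abundant gene of the group, had 8158, 5933 and 7189 CPM in ARG1- females and 5576, 5552 and 6731 CPM in ARG1- males. The ARG1+ libraries held 5156, 4499 and 4366 CPM in females and 4885, 4719 and 5853 CPM in males. Only ARG1+ male replicate 16 was above the lowest ARG1- library. The log2 ratio was -0.41 (SE 0.11, 95% interval -0.64 to -0.17, adjusted p = 0.0237 by edgeR's quasi-likelihood test). This call was lost in 6 of the 12 fits made with 11 libraries, those without ARG1- female replicate 13, ARG1- male replicate 14, ARG1+ female replicates 7, 8 or 15 or ARG1+ male replicate 12, with adjusted p up to 0.0752 by edgeR and log2 ratios from -0.39 to -0.35 in those 6. The calls of *Fcgr1*, *Fcgr3* and *Fcer1g* were kept in all 12 such fits. Of the 8 microglial markers, 5 were lower and 1 was higher, with a median log2 ratio of -0.59, against -0.48 for the 6 Fc receptor genes. *P2ry12* fell by 0.55 and *Tmem119* by 0.77 on the log2 scale, whereas *Sall1* rose by 0.43 and *Cx3cr1*, which the sort selected for, had a log2 ratio of 0.08 (adjusted p = 0.752 by edgeR).

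The balance between the receptors was described within each library, where a ratio does not depend on the scaling of the libraries. *Fcgr2b* stood at 14.02 to 17.1% of the *Fcgr3* CPM in ARG1- libraries (median 16.4%) and at 14.4 to 25.5% in ARG1+ libraries (median 18.0%). The ranges overlapped, and the highest value was again ARG1+ female replicate 15. *Fcer1g* stood at 34.1 to 47.7% of *Fcgr3* in ARG1- and 27.1 to 40.0% in ARG1+ libraries, and *Fcgr1* at 16.9 to 25.2% and 14.02 to 19.98%. All these ranges overlapped between the populations.

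**Figure D2:**
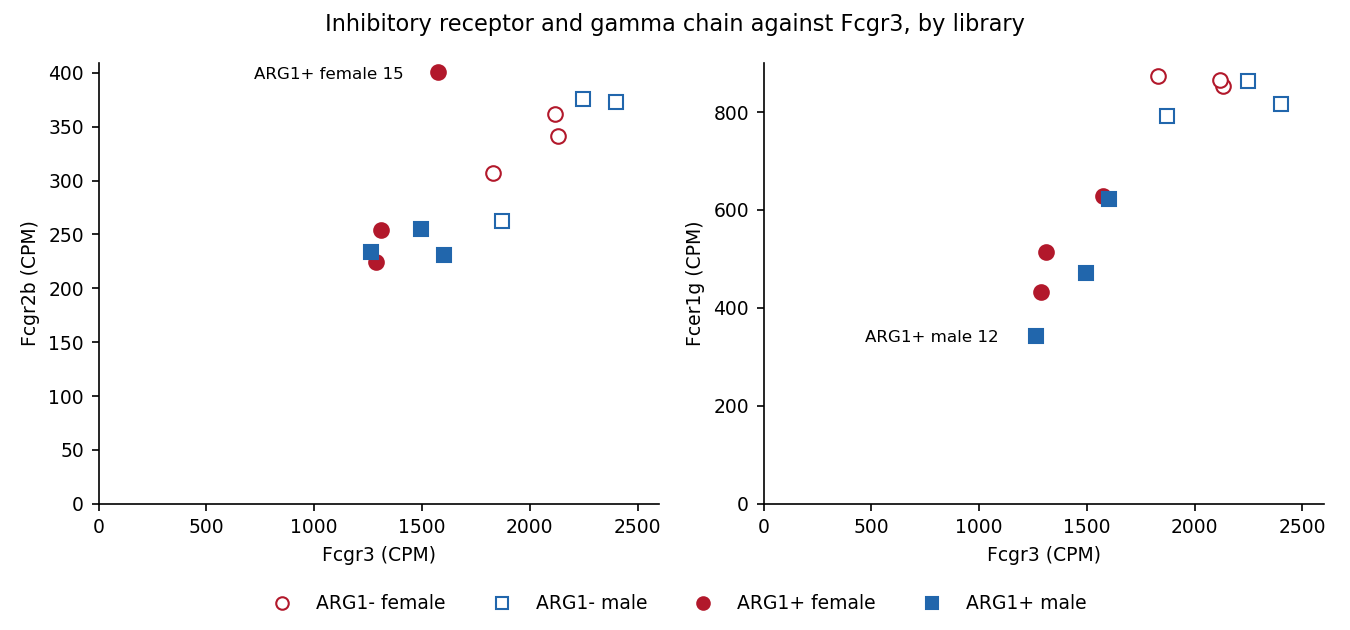
*Fcgr2b* (left, y axis, CPM) and *Fcer1g* (right, y axis, CPM) against *Fcgr3* (x axis, CPM) in the same library, with open symbols for ARG1- and filled symbols for ARG1+, circles for females and squares for males. ARG1+ female replicate 15 lies above the other ARG1+ libraries for *Fcgr2b*, at 25.5% of *Fcgr3*, and ARG1+ male replicate 12 has the lowest *Fcer1g*, at 342 CPM.

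The comparison by ARG1 status was repeated within each sex. In females *Fcgr1* had a log2 ratio of -0.79 (SE 0.13, adjusted p = 0.00882), *Fcrls* of -0.60 (SE 0.13, adjusted p = 0.0247), *Fcgr3* of -0.54 (SE 0.13, adjusted p = 0.0321) and *Fcer1g* of -0.72 (SE 0.19, adjusted p = 0.0477), all by edgeR. These 4 of the 6 genes were lower, as were 4.16% of all genes tested. In males *Fcgr3* had a log2 ratio of -0.58 (SE 0.13, adjusted p = 0.033), *Fcgr1* of -0.53 (SE 0.12, adjusted p = 0.0373) and *Fcer1g* of -0.79 (SE 0.19, adjusted p = 0.0407), so that 3 of the 6 were lower, against 3.1% of all genes tested. *Fcrls* was at -0.21 in males (SE 0.13, adjusted p = 0.382). These calls within 1 sex rest on 3 libraries a group, and with 1 library left out the number of genes called ran from 0 to 4 in females and from 0 to 3 in males.

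Whether the change with ARG1 status differed between the sexes was tested by the interaction. None of the 6 genes passed by edgeR or by DESeq2 (edgeR adjusted p of 0.556 or more), and the share of all genes tested that passed by edgeR was 0%, with 1576 genes at an unadjusted p under 0.05 and none of the 6 among them. DESeq2 called 285 genes for the interaction. *Fcrls* was closest, with a male minus female difference of 0.39 in log2 ratio (SE 0.19, 95% interval -0.02 to 0.80, adjusted p = 0.556 by edgeR). For *Fcgr3* the interval ran from -0.43 to 0.36 and for *Fcer1g* from -0.66 to 0.52. With 3 libraries a group, differences between the sexes within these intervals were not excluded.

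Females and males were also compared within each population. In ARG1- microglia none of the 6 genes differed, where 0.0946% of all genes tested did, and the smallest unadjusted p was 0.0814, for *Fcrls* (log2 ratio of males to females -0.25, SE 0.13, adjusted p = 0.56 by edgeR). In ARG1+ microglia none differed either, where 0.0355% of all genes tested did, and the smallest unadjusted p was 0.0808, for *Fcgr4* (log2 ratio -0.70, SE 0.36, adjusted p = 1 by edgeR). The intervals of the male minus female difference were -0.18 to 0.38 for *Fcgr3* and -0.38 to 0.17 for *Fcgr1* in ARG1- microglia, and -0.22 to 0.35 and -0.12 to 0.42 in ARG1+ microglia. For each of the 6 genes the ranges of females and males overlapped in both populations. The share of all genes with such overlap was not counted. DESeq2 called none of the 6 in either population. Of 29671 genes with a count it called 392 in ARG1- and 38 in ARG1+ microglia.

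**Figure D3:**
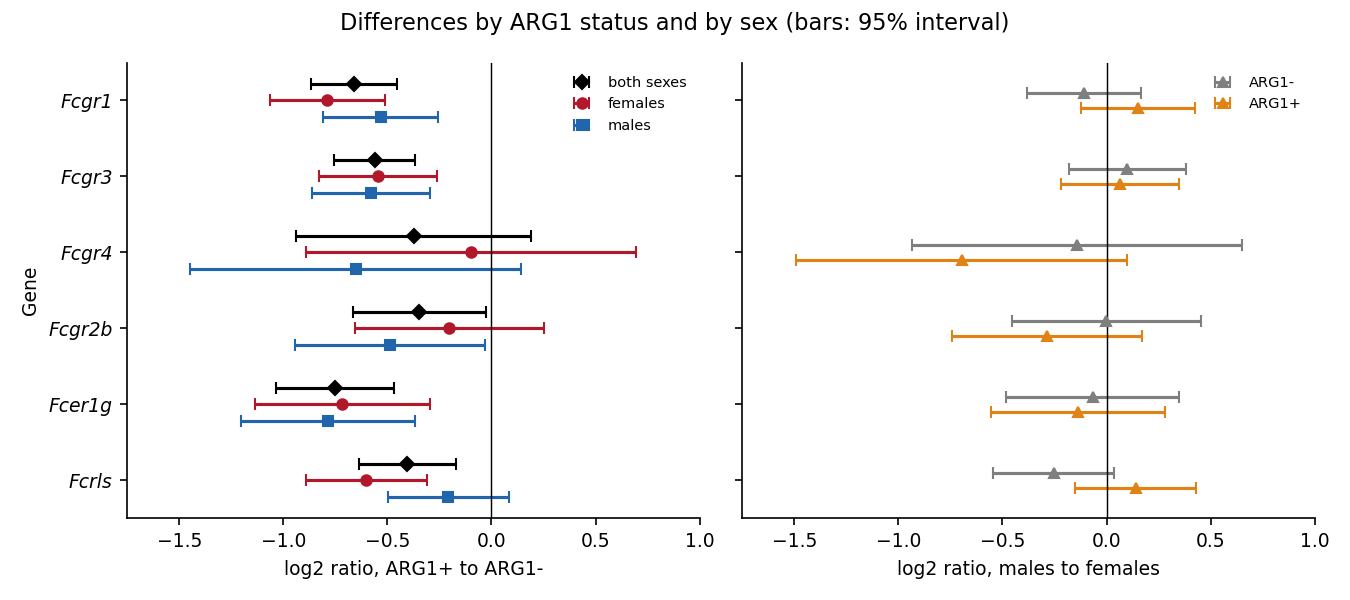
Log2 ratio of each gene with its 95% interval (x axis), ARG1+ to ARG1- at left for both sexes together, females and males, and males to females at right within ARG1- and ARG1+ microglia. The intervals at left lie below 0 for *Fcgr1*, *Fcgr3* and *Fcer1g* in all 3 fits, and every interval at right includes 0.

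The genes around the receptors on chromosome 1 were measured as well. Of the 17 annotated genes from *Fcgr2b* to *Fcer1g*, 5 others passed the filter, and 1 of these was called lower in ARG1+ microglia. It was *Sdhc*, a subunit of succinate dehydrogenase named here after its value was seen (log2 ratio -0.55, adjusted p = 0.0187 by edgeR). Those not called also had negative log2 ratios, of -0.84 for *Pcp4l1*, -0.46 for *Nr1i3*, -0.45 for *Tomm40l* and -0.03 for *Cfap126*. Their adjusted p values were 0.107 or more by edgeR. None was higher.

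*Spi1* encodes PU.1, the myeloid factor that binds purine-rich motifs and is known to drive Fc receptor genes. It was at 472 ± 36.6 CPM in ARG1- and 318 ± 41.9 CPM in ARG1+ microglia (SD, n = 6 libraries each), without overlap between the libraries. Its log2 ratio was -0.58 (SE 0.10, adjusted p = 0.0023 by edgeR's quasi-likelihood test). The 250 bases before the RefSeq start (GRCm38.p6) of the 4 genes that were lower are shown, read 5′ to 3′ along each gene. The window of *Fcgr3*, and that of *Fcgr2b* counted below, lie wholly inside the annotated gene spans given above. That of *Fcrls* lies mostly inside its span. The marked cores of *Fcgr3* and *Fcrls* are thus within the annotated genes and not before them. Capitals mark the PU.1 core GAGGAA on either strand and, in *Fcgr1*, the interferon-γ activated site TTCNNNGAA.
Fcgr1 (chr3:96293970-96294219, minus strand): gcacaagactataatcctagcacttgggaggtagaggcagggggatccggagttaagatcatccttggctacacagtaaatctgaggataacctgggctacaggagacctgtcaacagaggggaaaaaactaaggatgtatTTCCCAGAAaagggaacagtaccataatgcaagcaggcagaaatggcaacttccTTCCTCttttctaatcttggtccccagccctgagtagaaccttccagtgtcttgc
Fcgr3 (chr1:171059395-171059644, minus strand): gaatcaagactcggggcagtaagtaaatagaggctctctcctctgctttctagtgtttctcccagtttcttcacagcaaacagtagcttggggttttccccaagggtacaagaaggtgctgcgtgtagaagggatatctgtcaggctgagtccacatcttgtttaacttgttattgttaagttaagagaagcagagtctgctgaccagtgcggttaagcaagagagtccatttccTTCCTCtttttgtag
Fcer1g (chr1:171234350-171234599, minus strand): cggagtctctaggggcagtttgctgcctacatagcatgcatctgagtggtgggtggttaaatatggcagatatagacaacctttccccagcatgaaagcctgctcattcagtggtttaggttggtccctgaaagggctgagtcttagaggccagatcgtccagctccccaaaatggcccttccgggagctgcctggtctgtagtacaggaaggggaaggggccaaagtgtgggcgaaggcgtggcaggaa
Fcrls (chr3:87263525-87263774, minus strand): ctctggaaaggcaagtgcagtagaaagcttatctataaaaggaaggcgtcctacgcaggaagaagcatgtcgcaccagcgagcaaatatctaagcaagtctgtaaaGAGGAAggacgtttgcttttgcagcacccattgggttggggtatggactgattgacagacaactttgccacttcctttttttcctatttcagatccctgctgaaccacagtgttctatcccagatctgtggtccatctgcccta
The core was found in *Fcgr1* (55 to 50 bases before the start), in *Fcgr3* (15 to 10 bases before it, and 6 to 1 before a second listed start), in *Fcrls* (144 to 139) and in *Fcgr4* (22 to 17), and not in the windows of *Fcer1g* or *Fcgr2b*. It occurred in 23.3% of 32851 promoter windows of this length. TTCNNNGAA was found in *Fcgr1* alone of the 6 (109 to 101 bases before the start) and in 7.02% of all windows, and GAAANNGAA, a part of the interferon-stimulated response element, in *Fcgr4* alone (73 to 65) and in 7.13% of all windows. No motif overlapped another. These matches describe the letters only. *Fcer1g*, without the core in this window, was called lower. *Fcgr4*, with it, was not called, and its interval holds a decrease of the size seen for *Fcgr1* or *Fcgr3*. A part of PU.1 in these levels was not tested.

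The rest of the pathway was described by 11 lists of 132 genes, of which 104 passed the filter. In ARG1+ microglia 17 were lower and 12 were higher, 16.3% and 11.5% of those tested, against 9.42% and 6.44% of all genes. These counts moved with the processing, from 9 to 18 lower and from 5 to 19 higher over the alternatives and the fits without 1 library, apart from 37 lower and 3 higher in a fit that also shifted the median of all genes. The median log2 ratio of the 104 was 0.12. Of 24 called genes taken from the lists by p, 13 kept their call in all 12 fits without 1 library, and the calls of *Cd300a*, *Dock2*, *Dok2*, *Ifngr2*, *Lair1*, *Lyn*, *Pik3cb*, *Pik3r1*, *Pilra*, *Ptpn6* and *Was* were each lost in at least 1.

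**Figure D4:**
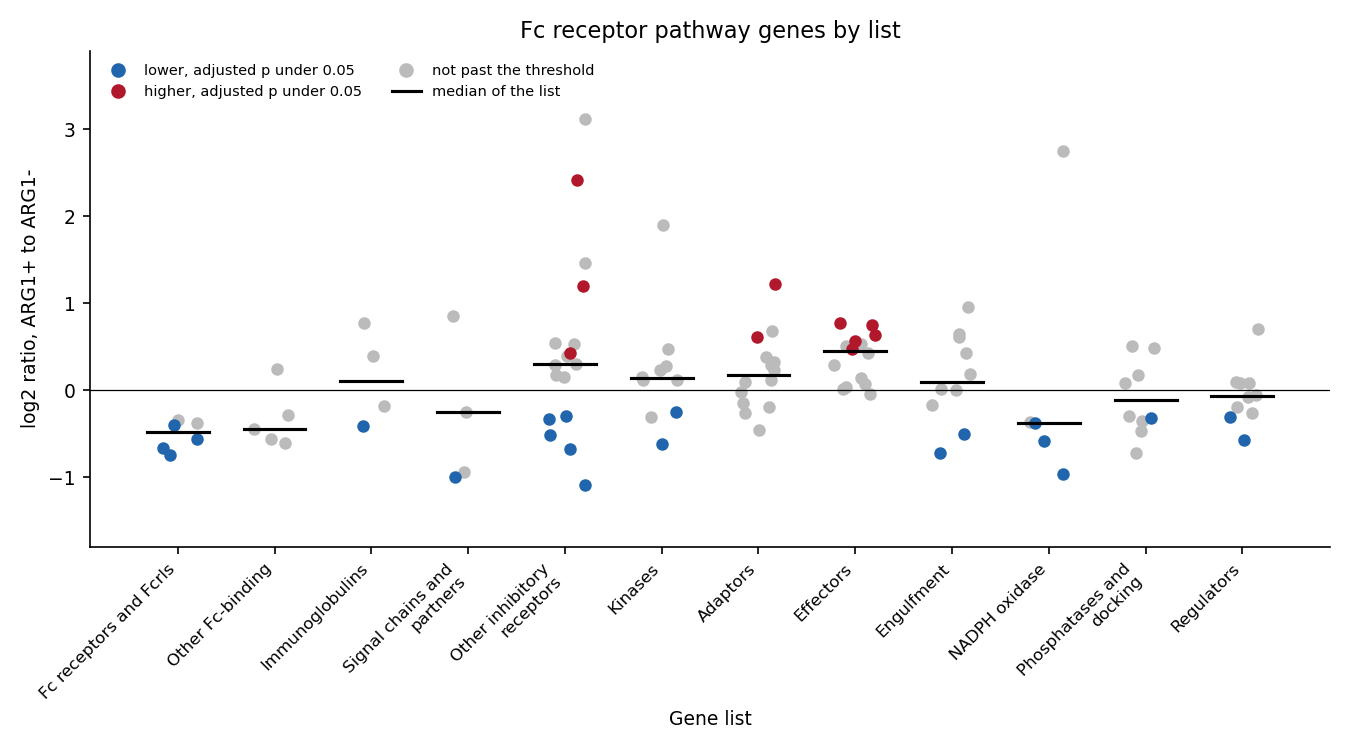
Log2 ratio (y axis, ARG1+ to ARG1-) of every tested gene in the Fc receptor group and in 11 pathway lists (x axis), with genes past the threshold in colour and the median of each list as a bar. *Clec4n* and *Dok2*, which are at or near 0 in ARG1- microglia, lie above the axis and are not drawn. The bars of the Fc receptor group and the NADPH oxidase lie at -0.48 and -0.37, that of the effectors at 0.45.

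Among the partners of the receptors, 5 of 14 listed genes passed the filter, 1 was lower and 1 was higher. *Tyrobp*, which encodes DAP12, the signalling chain that serves TREM2 in the way the γ-chain serves Fc receptors, fell from 1317 ± 137 to 661 ± 160 CPM (SD, n = 6 libraries each), a log2 ratio of -0.997 (SE 0.15, adjusted p = 0.00153 by edgeR) with no overlap between the libraries. It stood at 136 to 178% of *Fcer1g* in ARG1- and at 121 to 139% in ARG1+ libraries. *Clec4n*, which encodes dectin-2, a lectin that signals through the γ-chain, was at 0 counts in all ARG1- libraries and above 0 in 5 of the 6 ARG1+ libraries, at up to 3.07 CPM. It was at least 71.7-fold higher over the group, taking 3 counts over the 6 ARG1- libraries as the floor. ARG1+ male replicate 11 held 135 of its 204 counts, and without that library the bound was 30.3-fold. *Lilra5*, the most abundant partner that did not pass, had a log2 ratio of -0.26 (adjusted p = 0.508 by edgeR). The list's median of -0.26 is the same with *Clec4n* at its bound.

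Of 15 other Fc-binding genes, 5 passed the filter. None was called by edgeR or by DESeq2, while 3 were lower at an unadjusted p under 0.05 in edgeR. *B2m*, the light chain with which the neonatal Fc receptor is assembled, was the most abundant, at 1974 ± 425 CPM in ARG1- and 1346 ± 401 CPM in ARG1+ microglia (log2 ratio -0.56, adjusted p = 0.0926 by edgeR). The IgE receptor α and β chains *Fcer1a* and *Ms4a2*, which also need the γ-chain, were at 0 in all 12 libraries, as were 7 of the 15 genes in all.

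Immunoglobulin genes themselves were represented by *Ighm*, the μ heavy chain of IgM, which fell from 792 ± 54.9 to 594 ± 37.2 CPM without overlap (log2 ratio -0.42, SE 0.07, adjusted p = 0.00231 by edgeR). It was the 1 of 4 tested that changed. *Ighd* had a log2 ratio of 0.39 (adjusted p = 0.345 by edgeR). The light chain *Igkc* was at 0 in every ARG1+ library and was not tested. In ARG1- microglia it was at 0.24 and 1.95 CPM in female replicates 1 and 2 and at 0 in the other libraries. Of 8 B cell markers *Pax5* and *Blk* were at 0 counts in all 12 libraries and *Ms4a1* in all ARG1- libraries. Their summed level was 134 to 179 CPM in ARG1- and 56.7 to 93.7 CPM in ARG1+ libraries, nearly all of it *Cd79b*, the only one tested, at 158 ± 14.002 and 74.0 ± 12.9 CPM (SD, n = 6, log2 ratio -1.09, adjusted p = 0.000468 by edgeR). *Cd79a*, its partner in the B cell receptor, had a mean of 0.0279 CPM in ARG1- and 0.0095 CPM in ARG1+ microglia.

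The genes listed as other inhibitory receptors moved in both directions, and whether each is inhibitory in mouse microglia was not tested here. Of 17 tested, 5 were lower and 3 were higher, with a median log2 ratio of 0.30. *Clec4a2*, a lectin with an inhibitory motif, fell from 140 ± 35.4 to 65.4 ± 12.03 CPM (log2 ratio -1.09, adjusted p = 0.00183). *Pilra* fell by 0.68 on the log2 scale (adjusted p = 0.0218), *Lair1*, which binds collagen, by 0.33 (adjusted p = 0.0233) and *Cd300a*, which binds phosphatidylserine, by 0.30 (adjusted p = 0.0237), and the fifth, named after its value was seen, was *Siglece*, which fell by 0.52 (adjusted p = 0.0336, all by edgeR). The 3 that rose, likewise named after their values were seen, were *Lilrb4a* (log2 ratio 2.41), *Cd22* (1.19) and *Cd33* (0.42), with adjusted p of 0.0272, 0.0353 and 0.0453 by edgeR. *Sirpa*, the receptor for CD47 and the most abundant of the list, had a log2 ratio of 0.18 (adjusted p = 0.404 by edgeR).

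Among the kinases *Lyn*, of the Src family that phosphorylates the γ-chain, fell from 794 ± 59.7 to 667 ± 48.2 CPM (log2 ratio -0.25, SE 0.08, adjusted p = 0.0419 by edgeR), a call kept in 1 of 12 fits without a library. *Syk*, the kinase that docks to it, was not called (log2 ratio 0.15, adjusted p = 0.638 by edgeR), and the median of the list was 0.13.

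The adaptors and effectors that passed were higher. Among 14 adaptors tested, *Cbl*, a ubiquitin ligase that ends receptor signals, rose from 36.9 ± 13.5 to 86.4 ± 25.1 CPM (log2 ratio 1.22, adjusted p = 0.00914) and *Dock2*, a Rac activator, had a log2 ratio of 0.61 (adjusted p = 0.0479), while *Vav1* was not called (-0.02, adjusted p = 0.942, all by edgeR). Among 14 effectors, 5 were higher and none was lower, with a median of 0.45. They were the phospholipase genes *Plcg1* (log2 ratio 0.63, adjusted p = 0.0125) and *Pld2* (0.75, adjusted p = 0.0152), the phosphoinositide 3-kinase subunits *Pik3r1* (0.57, adjusted p = 0.0234) and *Pik3cb* (0.77, adjusted p = 0.0403), and *Nfatc1* (0.47, adjusted p = 0.0428, all by edgeR), the last named after its value was seen. *Prkcd* had a log2 ratio of 0.07 (adjusted p = 0.647 by edgeR). When each library's trend on exon length and GC content was removed, *Cbl* was still called. *Pld2* then had a log2 ratio of 0.64 (adjusted p = 0.0531), *Pik3cb* 0.62 (adjusted p = 0.0734), *Plcg1* 0.48 (adjusted p = 0.0503), *Pik3r1* 0.35 (adjusted p = 0.138) and *Dock2* 0.34 (adjusted p = 0.16, all by edgeR), none of them past the threshold.

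Of 10 engulfment genes, 2 were lower. *Cdc42*, the small GTPase of the phagocytic cup, fell from 1386 ± 87.2 to 981 ± 135 CPM (log2 ratio -0.50, adjusted p = 0.00561) and *Was*, which links it to actin, by 0.72 on the log2 scale (adjusted p = 0.0223, both by edgeR), whereas *Rac1* was not called (log2 ratio 0.0042, adjusted p = 0.982 by edgeR). The NADPH oxidase, which makes the oxidative burst, had a median of -0.37 over the subunits tested. *Cyba* fell from 477 ± 59.2 to 245 ± 55.5 CPM (log2 ratio -0.96, SE 0.15, adjusted p = 0.00139) and *Ncf1* by 0.37 (adjusted p = 0.00397, both by edgeR), each without overlap between the libraries. *Ncf4* had a log2 ratio of -0.37 (adjusted p = 0.212 by edgeR). The catalytic subunit *Cybb* was at 1.66 ± 3.09 CPM in ARG1- and 9.38 ± 3.24 CPM in ARG1+ microglia and was not called (adjusted p = 0.216 by edgeR).

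Of the phosphatases and docking proteins that act for inhibitory receptors, 1 of 10 was lower and 1 was higher. *Ptpn6*, which encodes SHP-1, fell by 0.32 on the log2 scale (adjusted p = 0.0253 by edgeR), and *Inpp5d*, which encodes SHIP-1, the main partner of FcγRIIB, was not called (log2 ratio 0.17, adjusted p = 0.483 by edgeR). *Dok2* was at 0 in 5 ARG1- libraries and at 1.59 CPM in ARG1- male replicate 5, and at 2.76 to 9.16 CPM in all ARG1+ libraries (adjusted p = 0.0264 by edgeR). Of 10 regulators, *Spi1* and *Ifngr2*, a chain of the interferon-γ receptor, were lower, the latter by 0.31 on the log2 scale (adjusted p = 0.0267 by edgeR). *Ifngr1*, the other chain, was not called (log2 ratio -0.08, adjusted p = 0.442 by edgeR). None was higher.

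Markers of other cells that carry Fc receptors were low. The summed level of 8 border macrophage markers was 106 to 141 CPM in ARG1- and 111 to 237 CPM in ARG1+ libraries, almost all of it *Mrc1*, the gene of the CD206 protein against which the cells were sorted, and none of 5 tested was called by edgeR, by DESeq2 or at an unadjusted p under 0.05. *Lyve1* and *Cd163* were at 0 in all ARG1- libraries and *Cd209f* in all 12. For 8 monocyte markers the sum was 7.26 to 16.6 and 6.85 to 15.9 CPM, with 1 of 6 tested lower (*Plac8*, log2 ratio -2.38, adjusted p = 0.00466 by edgeR). The 8 neutrophil markers summed to at most 5.15 and 0.0593 CPM and the 8 mast cell markers to at most 5.89 and 0.705 CPM. Both of these ARG1- maxima were those of a single library, ARG1- male replicate 6. The 8 natural killer and T cell markers summed to at most 0.661 and 1.4 CPM. Of the last, *Klrb1c* was at 0 in all ARG1- libraries and at up to 0.969 CPM in ARG1+ libraries, at least 35.9-fold higher against the same floor. The 8 dendritic cell markers summed to 2260 to 2887 and 1409 to 1744 CPM, nearly all from *Siglech*, which microglia also express, with 1 of 6 tested lower. The 8 endothelial markers summed to 29.8 to 58.1 and 44.9 to 83.6 CPM, led by *Pecam1*, with none of 4 called by edgeR and 1 higher at an unadjusted p under 0.05 or by DESeq2, and ARG1+ female replicate 15 had the highest value. The part of any of these cells in the Fc receptor values was not tested.

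Gene length moved with the comparison. The median log2 ratio was -0.02 for the 2205 genes tested with an exon length up to 1000 bases. It was -0.24 for the 2484 genes over 1000 and up to 2000 bases, and -0.06 for the 4871 genes over 2000 and up to 4000 bases. Above these it was 0.13 for the 5108 genes up to 8000 bases and 0.36 for the 2211 genes over 8000 bases. The exon lengths of the 6 genes were 874 bases for *Fcer1g*, 1256 for *Fcgr4*, 1736 for *Fcgr3*, 2334 for *Fcrls*, 2589 for *Fcgr1* and 5790 for *Fcgr2b*. With each library's trend on length and GC content removed, *Fcgr1* (log2 ratio -0.57, adjusted p = 0.00107), *Fcgr3* (-0.43, adjusted p = 0.00198) and *Fcer1g* (-0.56, adjusted p = 0.00443) were still lower by edgeR, and *Fcrls* was not (-0.33, adjusted p = 0.0698 by edgeR).

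The genes whose levels were most like those of each Fc receptor gene were found over the 12 libraries among 8954 genes of at least 10 CPM, as a description of libraries that share 2 populations. The highest Pearson correlations of log2 CPM were 0.97 with *Eif4a3* and 0.97 with *Twf2* for *Fcgr1*, 0.87 with *Hist1h2bc* and 0.86 with *Dynll1* for *Fcgr2b*, and 0.99 with *Cct4* and 0.98 with *Rpl4* for *Fcgr3*. They were 0.89 with *Nck1* and 0.88 with *Cisd2* for *Fcgr4*, 0.99 with *Svbp* and 0.99 with *Elob* for *Fcer1g*, and 0.92 with *Vsir* and 0.91 with *Lyn* for *Fcrls*. Once the mean of each of the 4 groups was subtracted, the closest were *Yars2* (0.93) and *Gpn1* (0.92) for *Fcgr1*, *Ywhab* (0.92) and *Sgf29* (0.90) for *Fcgr2b*, *Itgb1bp1* (0.98) and *Cct4* (0.95) for *Fcgr3*, *Gm42413* (0.92) and *Qdpr* (0.89) for *Fcgr4*, *Rpl13* (0.98) and *Elob* (0.97) for *Fcer1g*, and *Tmod3* (0.98) and *Zmpste24* (0.97) for *Fcrls*. Between the Fc receptor genes themselves the correlation over all libraries was highest for *Fcgr3* with *Fcer1g* (0.91), and 0.71 with group means subtracted. *Fcgr2b* and *Fcgr3*, which share sequence, were at 0.76 and 0.77, and *Fcrls* and *Fcgr3* at 0.65 and -0.03.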

How the data were processed

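Microglia of 12 libraries were profiled by bulk RNA-seq (SMART-Seq v4, Nextera XT, single-end reads of 75 bases). The authors aligned reads with STAR 2.6.1d to GRCm38 and deposited raw counts per Ensembl gene from featureCounts 1.5.1. Gene names came from GENCODE M21, in which 55227 IDs matched. The 260 others held 0.0333% of counts.

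Here, genes were filtered by filterByExpr on the 4 groups of ARG1 status and sex, counts were scaled by TMM, and ARG1+ was compared with ARG1- by edgeR 4.0.16 (R 4.3.3) with quasi-likelihood tests, sex as a covariate and Benjamini-Hochberg adjustment over 16908 genes. Sex contrasts came from a fit of the 4 group means. CPM are counts per 1000000 of the scaled total, the SE of a log2 ratio is its size over the root of F, and intervals use the fit's degrees of freedom. The fitting code was tested on simulated data.

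All 6 members were named. From each pathway list the genes past an adjusted p of 0.05 were named, at most the 4 with the smallest p, with the most abundant gene that did not pass. Some genes are not reported here. The members, lists and tests were chosen with earlier results of these data known. The labels do not say which libraries share a litter, so no samples were paired and p-values measure the spread between these pools. Totals of 28356659 to 60625170 counts put the floor of 3 counts at no more than 0.106 CPM, which covers counting error only. Alternatives included other scaling factors, filters, DESeq2 1.42.0, thinned counts, ARG1 status alone, a term for replicates 13 to 16, and each library left out.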

Additional observations from a re-analysis of the deposited data

Results flagged for a closer look

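The Fc receptor genes and the genes of the marker and pathway lists named in the text, 67 in all with *Arg1*, were searched, in the 6 libraries of each population, for 1 library far from the other 5, measured by its gap to the nearest divided by the range of the 6. Of 134 such groups 19 held one. The cut-off is passed by about 1 in 20 groups, or 6.7, if values are normally spread. That does not hold here, since a gene seen in only 1 of the 6 libraries always passes. The levels of some genes also moved together between libraries. The 19 can thus not be weighed against 6.7, and an excess was not tested.

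Of the Fc receptor genes, *Fcgr2b* stood at 400.4 CPM in ARG1+ female replicate 15, with the next ARG1+ library at 255 CPM, and *Fcgr4* at 45.1 CPM in the same library, with the next at 25.0 CPM. *Pilra* was also high there, at 25.3 CPM against 18.0 CPM for the next. The levels of *Fcgr1*, *Fcgr3*, *Fcer1g* and *Fcrls* in this library were not far from those of the other ARG1+ libraries by this measure.

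Among the pathway genes, ARG1- female replicate 1 was high for *Cd300a* (413 CPM), *Sirpa* (5678 CPM) and *Syk* (299 CPM), and ARG1- male replicate 14 for *Clec4a2* (208 CPM). ARG1+ female replicate 7 was high for *Pld2* (73.9 CPM) and *Pik3r1* (126 CPM), and ARG1+ male replicate 11 for *Clec4n* (3.07 CPM). ARG1+ male replicate 12 was low for *Cdc42* (714 CPM, with the next at 1000.2 CPM), the library that also had the lowest *Fcer1g*. *Dok2* was at 1.59 CPM in ARG1- male replicate 5 and at 0 in the other 5 ARG1- libraries, and *Cybb* was at 7.73 CPM in the same library, with the next at 2.16 CPM.

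The others were genes at or near 0. *Arg1* was at 1.48 CPM in ARG1+ female replicate 15 and *Igkc* at 1.95 CPM in ARG1- female replicate 2, with the next libraries at 0.0681 and 0.24 CPM. In 1 library each and at 0 in the other 5 of its population were *Cd163* (0.715 CPM) and *Ms4a1* (0.17 CPM) in ARG1+ female replicate 8, and *Cd79a* in ARG1- male replicate 6 (0.167 CPM) and in ARG1+ female replicate 15 (0.057 CPM).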

How the results depend on the processing

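*Fcgr1*, *Fcgr3* and *Fcer1g* kept their direction and their call under every alternative and in all 12 fits without 1 library, and *Fcgr4* stayed uncalled. The call of *Fcrls* was lost with no filter (log2 ratio -0.38, adjusted p = 0.0637) and with the trend on exon length and GC content removed (-0.33, adjusted p = 0.0698), and its values without 1 library ran from -0.45 to -0.33. *Fcgr2b* passed without ARG1+ female replicate 15 (-0.48, the lowest of such fits, the highest being -0.27) and with the trend not centred (-0.75). The summed counts of *Fcgr2b* and *Fcgr3* also passed (-0.53). Most of these counts were *Fcgr3*, which passed alone, so the sum does not test *Fcgr2b*. The trend fits were chosen after seeing the data, the first of them not centred. As that one moved the median log2 ratio of all genes from 0.06 to -0.26, the centred form (0.04) was added.

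Members called lower in females alone were 2 with DESeq2 size factors, 1 with no filter and 0 to 4 without 1 library. In males they were 0 with no filter and 0 to 3 without 1 library. Pathway genes called lower were 9 with no filter, 37 with the trend not centred and 9 to 17 without 1 library. Those called higher were 19 by DESeq2, 6 with the trend removed, 3 with it not centred and 5 to 15 without 1 library.

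The direction of 6 named pathway genes, none of them called above, turned. With the trend removed the log2 ratio was -0.0264 for *Syk*, -0.0329 for *Rac1* and 0.0111 for *Vav1*. With it not centred the values were -0.13 for *Sirpa*, -0.32 for *Syk*, -0.28 for *Prkcd*, -0.33 for *Rac1* and -0.24 for *Inpp5d*. *Vav1* was at 0.0184 with DESeq2 size factors, 0.0124 with no filter, 0.0178 with at least 10 counts in every library and 0.0255 by DESeq2, and from -0.0794 to 0.0481 without 1 library, where *Rac1* ran from -0.019 to 0.0524. The cause of these changes was not tested. No paired analysis was possible because the groups share no replicate numbers. The paper describes both populations as sorted from pooled tissue, so an ARG1+ and an ARG1- library may share animals. The labels do not give such pairs.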
